A study of Homo sapiens with 6 samples.

Results

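The histone genes of RPMI-8402, a line of human T-cell acute lymphoblastic leukaemia cells, were followed across lentiviral transductions labelled control, shGATA3 and shTCF1. They were chosen by name. Each probe whose accession led to a symbol starting with H1-, H2AC, H2BC, H3C, H4C, H2AZ, H3-3 or MACROH2A, or to H2AX or H2AJ, was taken, whatever its signal. This gave 95 probes for 79 of the 19722 genes that could be named on the array. Of these genes 64 are replication-dependent, 10 are variants, 3 are linker histones of germ cells, and 2 carry a histone name without coding for a histone (H1-10-AS1, an antisense RNA, and H1-9P, a pseudogene). A further 5 genes that fit the names, H2AC11, H2AC18, H2BC12L, H3C14 and H4C14, had no probe here. Genes were tested when, in 1 group or more, a probe lay well above background on each of its arrays. All 10 variants and 62 of the 64 replication-dependent genes met this, while H1-1 and H2BC1 were well above background on 0 of the 6 arrays. H4C16 passed only through the shGATA3 arrays, so its inclusion already depended on a higher signal there.

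All cells carried a lentiviral vector with EGFP in place of the puromycin marker and were sorted as EGFP+ at 48 h after transduction. The control vector held a hairpin (MISSION SHC002), the shGATA3 vector 1 hairpin against GATA3, and the shTCF1 vector a hairpin (also spelled shcTCF1 in the labels) against TCF7, the gene for TCF1. From 100 ng total RNA per sample, Cy3-labelled cRNA was hybridised to a custom 1-colour Agilent array, with 2 arrays per group. The study's legends call the replicates independent experiments, while the labels give only their numbers. The labelled knockdown was seen for TCF7 but not for GATA3. TCF7 read 14.004 and 14.008 log2 units in control and 12.53 and 12.60 in shTCF1, a fall of 1.44 on the log2 scale (SE 0.09, adjusted p = 0.00531). GATA3 read 9.58 and 9.65 in control and 9.46 and 9.52 on the arrays labelled shGATA3 (log2 difference -0.12, SE 0.10, adjusted p = 0.465), with a difference of 0.00047 under 75th percentile scaling. Directions given for shGATA3 are therefore those of arrays labelled so, whose GATA3 probe did not pass the test. Of 10 T lineage markers 8, with CD3D, CD3E, CD3G, CD5 and CD7 among them, lay well above background on all 6 arrays, and CD1A and RAG1 did not. Of 16 markers of other cell types on the array 10 were also above background on all 6 arrays. Both control arrays lay in the lower row of the slide and were brighter, with 75th percentiles of the processed signal of 271 and 290, against 166 to 179 in the upper row that held both shRNA groups. Slide row and the contrast with control cannot be told apart. Bulk RNA also cannot tell a change per cell from a change in the share of cells in a given cell cycle phase.

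Histones package DNA into nucleosomes. H2A, H2B, H3 and H4 form the core around which DNA is wound, and the linker histone H1 binds where the DNA enters and leaves it. Replication-dependent histone genes lie mostly in a large cluster on chromosome 6 and a smaller one on chromosome 1, are transcribed in S phase, and give short mRNAs without introns that end in a stem-loop bound by SLBP rather than in a poly(A) tail. Variant histones (H3.3, H2A.Z, macroH2A) mostly come from genes outside these clusters, with introns or poly(A) tails, and are made throughout the cell cycle. Some replication-dependent genes also give polyadenylated mRNA. Low-input labelling kits of this type prime cDNA synthesis on poly(A) tails, so an array signal for a replication-dependent gene counts what was primed, not the total histone mRNA.

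The promoters of these genes are shown for 1 gene of each class that was called in both groups, with 1 variant for contrast. They were taken from RefSeq (GRCh38.p14), 150 bases up to the base before the annotated start, 5′ to 3′ on the gene's strand. Capitals mark TATAAA (the TATA box), CCAAT, ATTTGCAT (the octamer of H2B promoters) and AAACACA (an element of H1 promoters) on either strand. None of these motifs contains another.
H3C15, chr1:149852458-149852607, plus strand: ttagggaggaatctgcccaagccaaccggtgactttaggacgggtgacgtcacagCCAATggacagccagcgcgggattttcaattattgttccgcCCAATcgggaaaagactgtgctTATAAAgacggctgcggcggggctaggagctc
H2AC8, chr6:26216771-26216920, plus strand: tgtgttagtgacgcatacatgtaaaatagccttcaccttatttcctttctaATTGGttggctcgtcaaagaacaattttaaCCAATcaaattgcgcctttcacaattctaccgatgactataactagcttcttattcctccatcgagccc
H2BC7, chr6:26199366-26199515, plus strand: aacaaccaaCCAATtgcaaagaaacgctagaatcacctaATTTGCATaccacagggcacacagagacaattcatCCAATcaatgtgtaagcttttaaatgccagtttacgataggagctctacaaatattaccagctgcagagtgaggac
H4C11, chr6:27823942-27824091, plus strand: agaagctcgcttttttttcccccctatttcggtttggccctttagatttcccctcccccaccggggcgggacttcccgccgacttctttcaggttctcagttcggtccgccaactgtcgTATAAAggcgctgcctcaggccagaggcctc
H1-2, chr6:26056471-26056620, minus strand: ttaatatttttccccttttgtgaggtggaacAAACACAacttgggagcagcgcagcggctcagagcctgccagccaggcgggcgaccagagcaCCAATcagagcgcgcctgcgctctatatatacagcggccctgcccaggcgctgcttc
H3-3A, chr1:226061681-226061830, plus strand: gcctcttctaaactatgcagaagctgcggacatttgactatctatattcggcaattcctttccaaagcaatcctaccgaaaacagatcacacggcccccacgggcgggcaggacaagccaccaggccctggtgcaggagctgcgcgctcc
In H3C15 the TATA box began 32 bases and the pair of CCAAT boxes 95 and 54 bases before the start, and in H4C11 the TATA box began 31 bases before it. In the 250 bases before the start, TATAAA was found in 37 of the 57 tested replication-dependent genes with a promoter in the RefSeq table (64.9%), in 4 of 9 variants and in 11.1% of all 27305 promoters. The octamer was found in 13 of 17 H2B promoters and 10 of 14 H2A promoters, against 1.66% of all. AAACACA was present in 4 of 4 H1 promoters and in 4.95% of all promoters. CCAAT was found in all 14 H2A, 17 H2B, 10 H3 and 4 H1 promoters, and in 3 of 12 H4 promoters, against 33.0% of all. H2A and H2B neighbours that share a promoter contribute the same bases to more than 1 of these counts.

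Replication-dependent histone genes were higher on the arrays of both shRNA groups than on the control arrays, and most variants were not called. In shGATA3 36 of 62 replication-dependent genes rose and 0 fell, with 60 of 62 differences above 0, at an adjusted p under 0.05 over 31134 tested probes. Over all tested probes 2.05% were called higher and 4.64% lower. In shTCF1 32 of 62 rose and 0 fell, beside 4.62% of all probes called higher and 15.5% called lower. The median log2 difference of these 62 genes was 0.59 in shGATA3 and 0.45 in shTCF1, while the median of all tested probes lay at -0.08 and -0.14, so that the genes stood 0.67 and 0.59 above the array as a whole. Of the 10 variants 0 were called in shGATA3, with a median of 0.12, and in shTCF1 1 was called higher and 1 lower, with a median of 0.14. These medians stood 0.20 and 0.29 above the array as a whole. The array as a whole was not matched to these genes for level. The 872 tested probes over 14 log2 units in control had medians of 0.03 in shGATA3 and 0.005 in shTCF1. The 18 replication-dependent genes at that level had medians of 0.42 and 0.24. Several variants also lay at that level, and their median was not compared by level. The variant counts depended on the scaling of the arrays. With 4 other scalings 0 to 4 variants were called higher in shGATA3 and 1 to 5 in shTCF1, most with VSN fitted on the tested probes.

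On the single arrays, the median of the 62 replication-dependent genes over the control mean was 0.58 and 0.63 in shGATA3 and 0.48 and 0.43 in shTCF1. The control arrays lay within 0.01 of their mean on either side. The variants read 0.15 and 0.17 in shGATA3 and 0.14 and 0.18 in shTCF1 on the same scale. Neither shRNA group overlapped the control arrays in either set, and the gap between the sets was larger than the spread between arrays. The median of all tested probes did not overlap control either, but lay on the other side. It read -0.02 and 0.02 in control, -0.06 and -0.10 in shGATA3, and -0.14 and -0.14 in shTCF1. With 2 arrays against 2, an exact two-sided permutation test of such a median cannot go below p = 0.333, and the set was proposed with these data known, so that none is given.

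**Figure D1:**
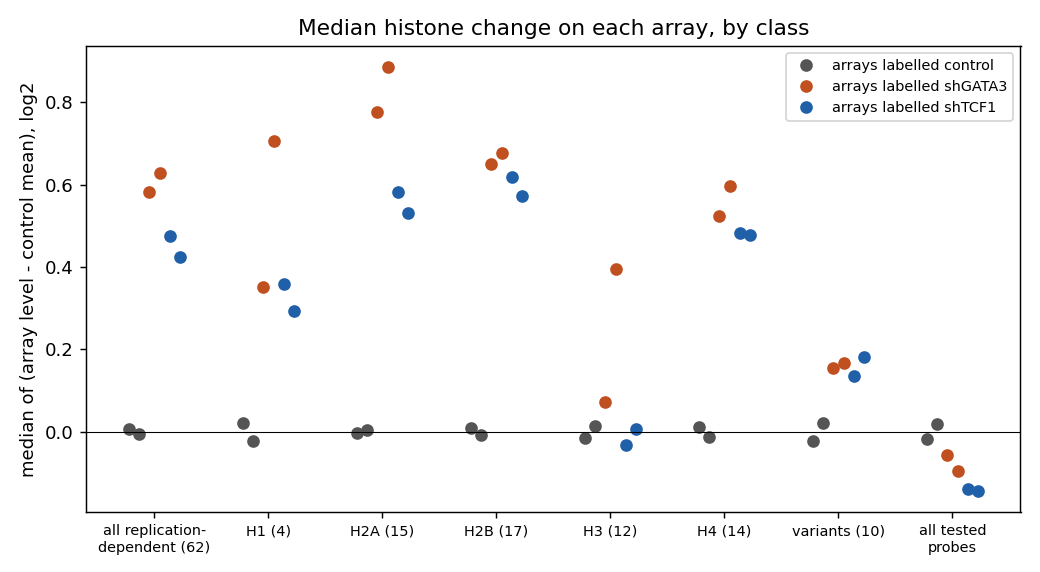
Median over genes of the array level minus the mean of the control arrays (log2 units, vertical axis) for the replication-dependent histone genes together and by class, the variants, and all tested probes, 1 point for each of the 6 arrays, with the number of genes in brackets. The shRNA arrays lie at 0.43 to 0.63 for the 62 replication-dependent genes and at 0.14 to 0.18 for the 10 variants.

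The number of called genes fell when any 1 array was left out, while the size of the change moved little. Such fits have fewer residual degrees of freedom, and calls over all tested probes fell as well. These fits kept the normalization of all 6 arrays. Leaving out a replicate of 1 shRNA group therefore could not move the difference of the other group from control. In shGATA3 the median thus read 0.59 without either shTCF1 replicate. Without 1 array, the replication-dependent genes called higher in shGATA3 numbered 6 and 10 when control replicates 1 and 2 were left out, 10 and 4 for the shGATA3 replicates in the same order, and 16 and 12 for the shTCF1 replicates. In shTCF1 they numbered 6 and 9 without control replicates 1 and 2, 8 without either shTCF1 replicate, and 29 and 30 without shGATA3 replicates 1 and 2. The median difference stayed between 0.58 and 0.63 in shGATA3 and between 0.41 and 0.48 in shTCF1 over these fits. H2AC8, H2BC7, H4C11 and H3C15 were called in all 6 such fits for shGATA3, and H2AC8, H2BC26, H4C6, H4C11 and H3C15 in all 6 for shTCF1. Each other called histone gene, MACROH2A2 included, lost its call in at least 1 of these fits. Under 4 other scalings of the arrays, 35 to 46 replication-dependent genes were called higher in shGATA3 and 35 to 44 in shTCF1. The absence of lower calls in shTCF1 did not hold everywhere: 2 replication-dependent genes were called lower with normexp, 3 with an intensity trend in the variance, 1 in the fit on its own 4 arrays and 1 without either shGATA3 replicate. The 4 scalings also moved the balance of all calls: 30.6% of called probes were higher in shGATA3 and 22.9% in shTCF1, against 53.6% and 54.8% with 75th percentile scaling, 53.0% and 53.3% with quantile normalization, 48.2% and 49.1% with normexp, and 45.6% and 46.1% with VSN fitted on the tested probes.

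H2A and H2B, which pair into the dimers at both faces of the nucleosome, held the largest share of called genes. Of 15 tested H2A genes 10 rose in shGATA3 (median difference 0.89 log2 units) and 10 in shTCF1 (median 0.56). Of 17 H2B genes 16 rose in shGATA3 (median 0.65) and 11 in shTCF1 (median 0.59). H2AC8 read 11.99 and 11.98 log2 units in control, 13.10 and 13.10 in shGATA3, and 13.50 and 13.54 in shTCF1. This was a difference of 1.12 (2.17-fold, SE 0.09, adjusted p = 0.00715) in shGATA3 and 1.54 (2.90-fold, SE 0.09, adjusted p = 0.00518) in shTCF1, and the groups did not overlap. H2BC7 read 11.27 and 11.24 in control, 12.43 and 12.42 in shGATA3, and 12.04 and 11.96 in shTCF1, higher by 1.17 (adjusted p = 0.00715) and 0.75 (adjusted p = 0.0116). H2BC26, which lies outside the large clusters, read 7.87 and 7.85 in control, 8.74 and 8.67 in shGATA3, and 8.89 and 8.82 in shTCF1, higher by 0.84 (adjusted p = 0.0150) and 0.99 (adjusted p = 0.00794). Again the control arrays lay below all 4 shRNA arrays for both H2B genes.

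Among the other H2A genes, H2AC16 rose by 0.89 and 0.85 log2 units (adjusted p = 0.0137 and 0.00999) and H2AC19, whose near-identical copy H2AC18 has no probe of its own here, by 1.03 and 0.81 (adjusted p = 0.0301 and 0.0269). H2AC1, a gene of low signal, read 5.90 and 6.35 in control, 7.77 and 7.01 in shGATA3, and 7.40 and 7.39 in shTCF1. Its difference of 1.26 in shGATA3 did not pass (adjusted p = 0.0614), with its arrays wide apart, and its difference of 1.27 in shTCF1 did (adjusted p = 0.0357). Among H2B genes, H2BC6 rose by 1.09 and 0.78 (adjusted p = 0.0219 and 0.0235) and H2BC17 by 0.93 and 0.70 (adjusted p = 0.0157 and 0.0167). By the larger of the differences from control, the smallest changes in these classes were those of H2AC25, at 0.01 and -0.13 (adjusted p = 0.982 and 0.568), and of H2BC21, at -0.04 and 0.01 (adjusted p = 0.853 and 0.959), whose signs turned under other scalings.

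**Figure D2:**
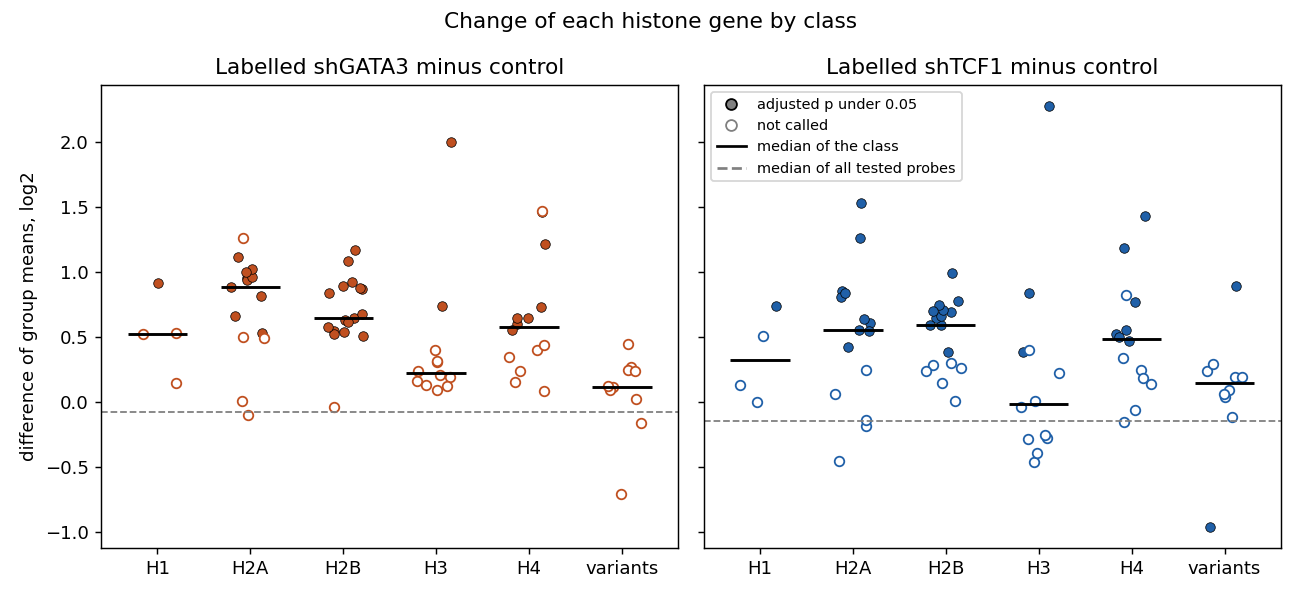
Difference of group means (log2 units, vertical axis) of each tested histone gene, by replication-dependent class and for the variants, shGATA3 minus control on the left and shTCF1 minus control on the right. Filled points have an adjusted p under 0.05, black bars are class medians and the dashed line is the median of all tested probes. H2A and H2B lie highest as classes, and most H3 genes lie beside the variants.

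H3 and H4 form the tetramer at the centre of the nucleosome, but the 2 classes did not have the same counts. Of 12 tested H3 genes 2 rose in shGATA3 (median 0.23) and 3 in shTCF1 (median -0.01), against 7 of 14 H4 genes in each group (medians 0.58 and 0.49). The H3 gene with the largest difference of all histone genes was H3C15, on chromosome 1, which codes for H3.2. It read 13.20 and 13.46 log2 units in control, 15.28 and 15.39 in shGATA3, and 15.55 and 15.67 in shTCF1. This was 4.02-fold in shGATA3 (log2 difference 2.01, SE 0.13, adjusted p = 0.00466) and 4.86-fold in shTCF1 (2.28, SE 0.13, adjusted p = 0.00479), with no overlap. Its near-identical copy H3C14 has no probe of its own here, and cross-hybridisation between copies was not tested. The other H3 gene of that chromosome, H3C13, read 14.87 and 14.94 in control, 15.61 and 15.68 in shGATA3, and 15.72 and 15.77 in shTCF1, higher by 0.74 (adjusted p = 0.0200) and 0.84 (adjusted p = 0.0103).

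The 10 tested H3 genes of chromosome 6, which code for H3.1, were read by the brightest probe of each. They ranged from 0.10 to 0.40 in shGATA3, where 0 were called. In shTCF1 they ranged from -0.46 to 0.40, and H3C3 alone was called (0.38, adjusted p = 0.0483). H3C4 had the lowest value, reading 15.97 and 15.95 in control, 15.93 and 16.37 in shGATA3, and 15.44 and 15.55 in shTCF1 (-0.46, adjusted p = 0.105). H3C11 lay highest among them, at 0.40 in both groups (adjusted p = 0.0859 and 0.0529), and H3C6 closest to 0, at 0.10 and 0.01. A dimmer probe of H3C10 lay outside these ranges and rose by 1.81 and 1.66 (adjusted p = 0.00578 and 0.00630). On the single arrays the H3 median was 0.07 and 0.39 in shGATA3 and -0.03 and 0.01 in shTCF1, so that the shGATA3 arrays differed from each other more in H3 than in any other core class.

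Among the H4 genes, H4C11 read 11.99 and 12.03 in control, 13.42 and 13.53 in shGATA3, and 13.46 and 13.43 in shTCF1. It was higher by 1.46 (2.75-fold, adjusted p = 0.00480) and 1.43 (2.70-fold, adjusted p = 0.00571). H4C6 read 10.73 and 10.74 in control, 11.87 and 12.04 in shGATA3, and 11.98 and 11.87 in shTCF1, higher by 1.22 (adjusted p = 0.00915) and 1.19 (adjusted p = 0.00761). Both genes had all 4 shRNA arrays above the control arrays. H4C16, on chromosome 12, did not reach well above background on any control or shTCF1 array, and its shGATA3 mean was at least 1.93-fold higher than the control bound (adjusted p = 0.0742). By the larger of its differences from control, H4C5 changed least, at 0.09 and -0.15 (adjusted p = 0.656 and 0.388).

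Of the 4 tested linker histone genes of the replication-dependent kind, 1 rose in each group. It was H1-2 in both, reading 13.70 and 13.66 in control, 14.49 and 14.71 in shGATA3, and 14.40 and 14.44 in shTCF1. Its differences were 0.92 (adjusted p = 0.0183) and 0.74 (adjusted p = 0.0166). H1-4 had differences of 0.53 and 0.51 that did not pass (adjusted p = 0.0928 and 0.0626), H1-5 of 0.53 and 0.14 (adjusted p = 0.0819 and 0.507), and H1-3 of 0.15 and 0.00 (adjusted p = 0.400 and 0.980). The shGATA3 arrays lay 0.35 and 0.71 above control in the H1 median, a spread as wide as the lower value. Of the germ cell linker histones, H1-6 was well above background on 0 arrays, H1-7 had differences of -0.53 and -0.63 (adjusted p = 0.115 and 0.0504) and H1-8 of 0.19 and -0.17 (adjusted p = 0.421 and 0.412). The antisense RNA H1-10-AS1 stood at -0.55 and 0.10 (adjusted p = 0.241 and 0.811).

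**Figure D3:**
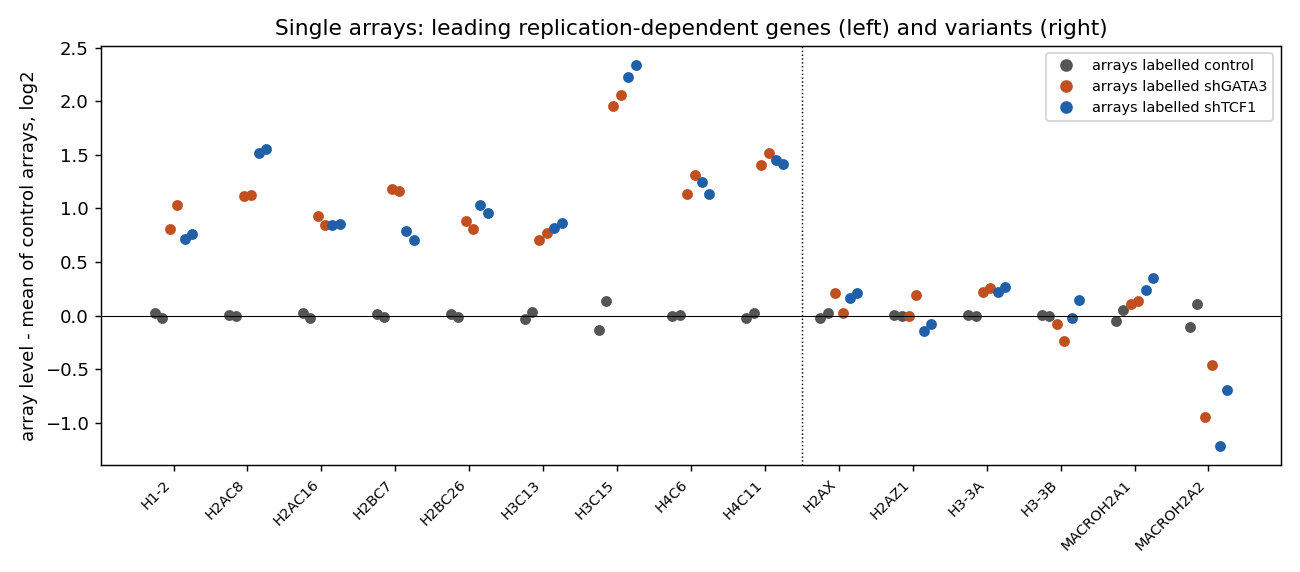
Level on each of the 6 arrays minus the mean of the control arrays (log2 units, vertical axis) for 9 replication-dependent genes, left of the dotted line, and 6 variants, right of it. Each point is 1 array. The shRNA arrays lie above both control arrays for the 9 genes on the left, up to 2.28 on average for H3C15, and for the 6 variants the values include both signs.

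Of the variants, 8 were called in neither group. H3-3A, one of the H3.3 genes, read 17.50 and 17.50 log2 units in control, 17.72 and 17.75 in shGATA3, and 17.71 and 17.77 in shTCF1 (0.24 in each, adjusted p = 0.165 and 0.113). H3-3B, which codes for the same protein, had differences of -0.16 and 0.06 (adjusted p = 0.408 and 0.726). H2AZ1, which supplies the H2A.Z found at promoters, read 15.94 and 15.93 in control, 15.92 and 16.13 in shGATA3, and 15.78 and 15.85 in shTCF1 (0.09 and -0.11, adjusted p = 0.612 and 0.488). H2AZ2 stood at 0.25 and 0.04 (adjusted p = 0.169 and 0.793), while a dimmer probe of it stood at -0.44 and -0.34 (adjusted p = 0.112 and 0.127). H2AX, which is phosphorylated at DNA breaks and also gives a stem-loop mRNA, stood at 0.12 and 0.19 (adjusted p = 0.520 and 0.247). H2AJ stood at 0.02 and 0.10, H1-10 at 0.27 and 0.19, and MACROH2A1 at 0.12 and 0.30, none of them called. The signs of H2AJ, H2AZ1, H2AZ2, H3-3B and MACROH2A1 each turned in at least 1 group under another scaling, the deposited values or a fit without 1 array.

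The variant called lower in shTCF1 was MACROH2A2, a macroH2A gene. It read 4.82 and 5.04 in control, 3.98 and 4.47 in shGATA3, and 3.72 and 4.23 in shTCF1, where it was not well above background. It was tested only because of its control signal, so its inclusion already depended on a higher level there. Control was at least 1.93-fold higher than shTCF1 (adjusted p = 0.0485). This call was lost under each of the 4 other scalings and in each fit without 1 array, with adjusted p up to 0.179 in the latter.

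Where a gene lies and whether it is known to give polyadenylated mRNA were compared next. The 51 tested genes of the chromosome 6 cluster had a median of 0.56 in shGATA3, with 29 called, and 0.40 in shTCF1, with 26 called. The 8 of the chromosome 1 cluster had 0.62, with 6 called, and 0.57, with 5 called. The 6 genes with a known polyadenylated mRNA were H1-2, H2AC6, H2BC4, H2BC5, H2BC12 and H2BC21. Their medians were 0.56, with 5 called, and 0.28, with 2 called. The other 56 had 0.61, with 31 called, and 0.51, with 30 called. These sets differ in class. The 6 hold no H3 or H4 gene, and 10 of the 12 tested H3 genes lie on chromosome 6. Class was not separated from place or polyadenylation. The level in control went with the size of the change only loosely. Across the 62 genes, which share arrays and labelling, Spearman's rho between control level and difference was -0.33 in shGATA3 and -0.39 in shTCF1.

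Many H2A and H2B genes are transcribed away from each other out of a shared promoter. By RefSeq starts on opposite strands within 600 bases, 9 such pairs had both genes tested, with 194 to 246 bases between starts. Both genes rose in 6 pairs in shGATA3 and in 4 pairs in shTCF1. H2AC7 and H2BC7 rose by 1.00 and 1.17 log2 units in shGATA3 and by 0.84 and 0.75 in shTCF1. H2AC8 and H2BC8 rose by 1.12 and 0.62 in shGATA3, and by 1.54 and 0.39 in shTCF1. Other pairs were uneven. H2BC26 rose by 0.84 and 0.99 while its neighbour H2AC25 stood at 0.01 and -0.13, and H2BC13 rose by 0.89 and 0.65 while H2AC13 stood at 0.49 and -0.18 (adjusted p = 0.0795 and 0.345). Differences within a pair were not tested.

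Set directly against each other, the shRNA groups had a called difference in 1 replication-dependent gene. Of the 62 genes 1 (1.61%) was called higher in shGATA3 than in shTCF1 and 0 lower, beside 3.85% of all probes called higher and 1.90% lower. Of the 62 differences 52 lay above 0 and 10 below. An unadjusted limma p under 0.05 was found for 22 of these genes. Its share over all probes was not counted, so this count cannot be set against the array as a whole. It was 11 with 75th percentile scaling, 17 with quantile normalization, 23 with normexp and 20 with VSN fitted on the tested probes. In the fit on the contrast's own 4 arrays it was 13, and with an intensity trend 30. The median was 0.18 over the replication-dependent genes, -0.04 over the variants and 0.05 over all tested probes. The called gene, H2AC13, read 12.75 and 13.03 in shGATA3 and 12.23 and 12.21 in shTCF1, with 12.35 and 12.44 in control (log2 difference 0.67, SE 0.13, adjusted p = 0.0457). It was called in none of the 6 fits without 1 array. H2AC8 stood at -0.42 (adjusted p = 0.0613), H2BC7 at 0.43 (adjusted p = 0.0639) and H3C15 at -0.27 (adjusted p = 0.274). The share of higher calls here was 67.0%, against 56.7% with 75th percentile scaling, 57.3% with quantile normalization, 54.4% with normexp and 55.7% with VSN fitted on the tested probes.

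Several genes had more than 1 tested probe, and these did not always move alike. In the counts above the brightest probe stood for its gene. A dimmer probe of H3C10 rose by 1.81 and 1.66 log2 units (adjusted p = 0.00578 and 0.00630), while the brighter one stood at 0.31 and -0.28 (adjusted p = 0.335 and 0.317). For H4C1 the dimmer probe rose by 1.12 and 1.24 (adjusted p = 0.0138 and 0.00811) and the brighter stood at 0.16 and -0.06, and for H4C12 the dimmer rose by 1.49 and 1.44 (adjusted p = 0.00506 and 0.00579) and the brighter stood at 0.41 and 0.25. The dimmer probe of H2AC17 rose by 1.47 and 1.40, and its brighter one by 0.82 and 0.64. The reverse held for H4C13, whose brighter probe rose by 0.73 and 0.56 (adjusted p = 0.0419 and 0.0427) and whose dimmer probe stood at -0.18 and -0.53 (adjusted p = 0.518 and 0.0798). A dimmer probe of H2BC12 fell by 0.44 in shTCF1 (adjusted p = 0.0299), with 0.24 on the brighter probe (adjusted p = 0.135). Which part of each mRNA, or which near-identical copy, a probe reads was not analysed here.

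**Figure D4:**
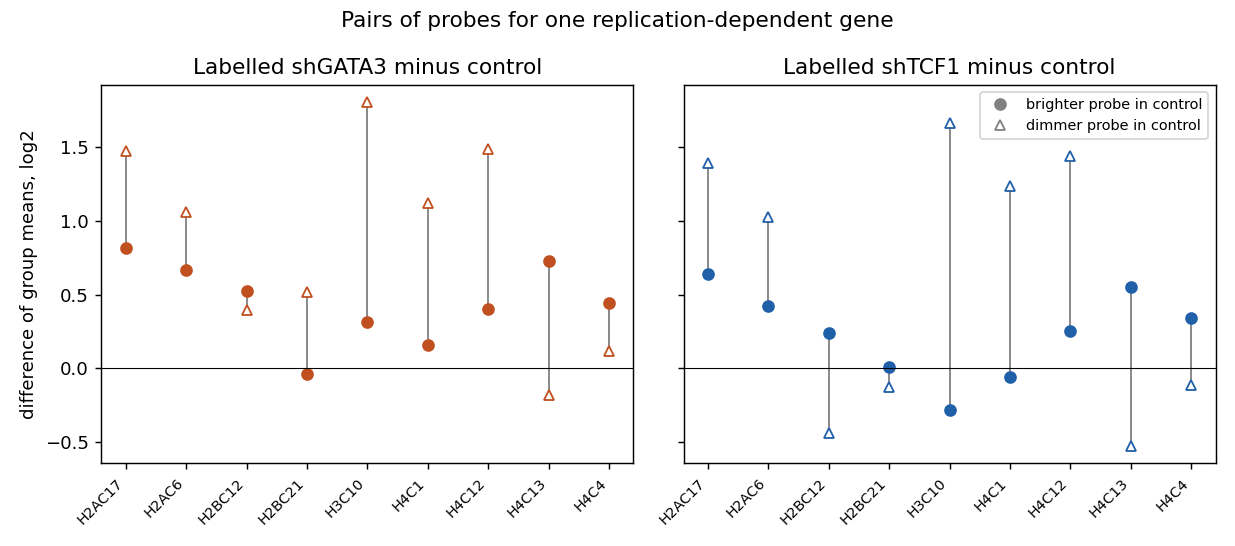
Difference of group means (log2 units, vertical axis) for pairs of probes of the same replication-dependent gene, shGATA3 minus control on the left and shTCF1 minus control on the right. Filled circles are the brighter probe in control, open triangles the dimmer one, and a line joins them. H3C10, H4C1 and H4C12 have dimmer probes at 1.12 to 1.81 above brighter ones at -0.28 to 0.41.

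The genes that supply histone mRNA and place histones on DNA did not rise with the histone genes. Of 21 tested genes of histone transcription and mRNA processing 0 were called in shGATA3 (median -0.20), and 0 higher and 4 lower in shTCF1 (median -0.30), beside medians of all probes of -0.08 and -0.14. The share called lower in shTCF1 was 19.05%, near the 15.5% of all probes. In shGATA3 2.05% of all probes were called higher and 4.64% lower. SLBP, which binds the stem-loop, stood at -0.29 and -0.32 (adjusted p = 0.127 and 0.0643), and NPAT, the co-activator of histone transcription, at -0.52 and -0.58 (adjusted p = 0.115 and 0.0597). CSTF3, a cleavage factor subunit, fell by 0.84 in shTCF1 (adjusted p = 0.0140), as did ZNF473, which takes part in histone mRNA 3′ end formation, by 0.67 (adjusted p = 0.0203). Of 26 chaperone and deposition genes 0 rose and 1 fell in shGATA3 (median -0.14), 3.85% called lower beside the 4.64% of all probes. In shTCF1 1 rose and 4 fell (median -0.19), where 15.4% called lower again lay beside the 15.5% of all probes. INO80, a remodeller, fell by 0.83 in each (adjusted p = 0.0225 and 0.0132), TONSL, which recognises new H4, fell by 0.69 in shTCF1 (adjusted p = 0.0186), and ASF1B, an H3-H4 chaperone, rose by 0.47 in shTCF1 (adjusted p = 0.0304).

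Lists of cell cycle genes did not rise as a whole either. Of 35 tested S phase genes 0 rose and 1 fell in shGATA3 (median -0.20), 2.86% called lower beside 4.64% of all probes. In shTCF1 0 rose and 4 fell (median -0.23), 11.4% called lower beside 15.5% of all probes. Of all probes 2.05% were called higher in shGATA3 and 4.62% in shTCF1. RFC3, a subunit of the clamp loader, fell by 0.69 and 1.30 log2 units (adjusted p = 0.0220 and 0.00599), and POLA2, of DNA polymerase alpha, by 0.81 in shTCF1 (adjusted p = 0.0105). Of 23 tested mitosis genes 0 were called in shGATA3 (median -0.10), and 1 rose and 3 fell in shTCF1 (median -0.16), 13.04% called lower. Neither list held more falls than the array as a whole in shTCF1. The single genes that fell there included CENPA, the H3 variant of centromeres, by 0.52 (adjusted p = 0.0279) and TPX2, a spindle factor, by 0.50 (adjusted p = 0.0238). The share of cells in each phase was not measured here.

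**Figure D5:**
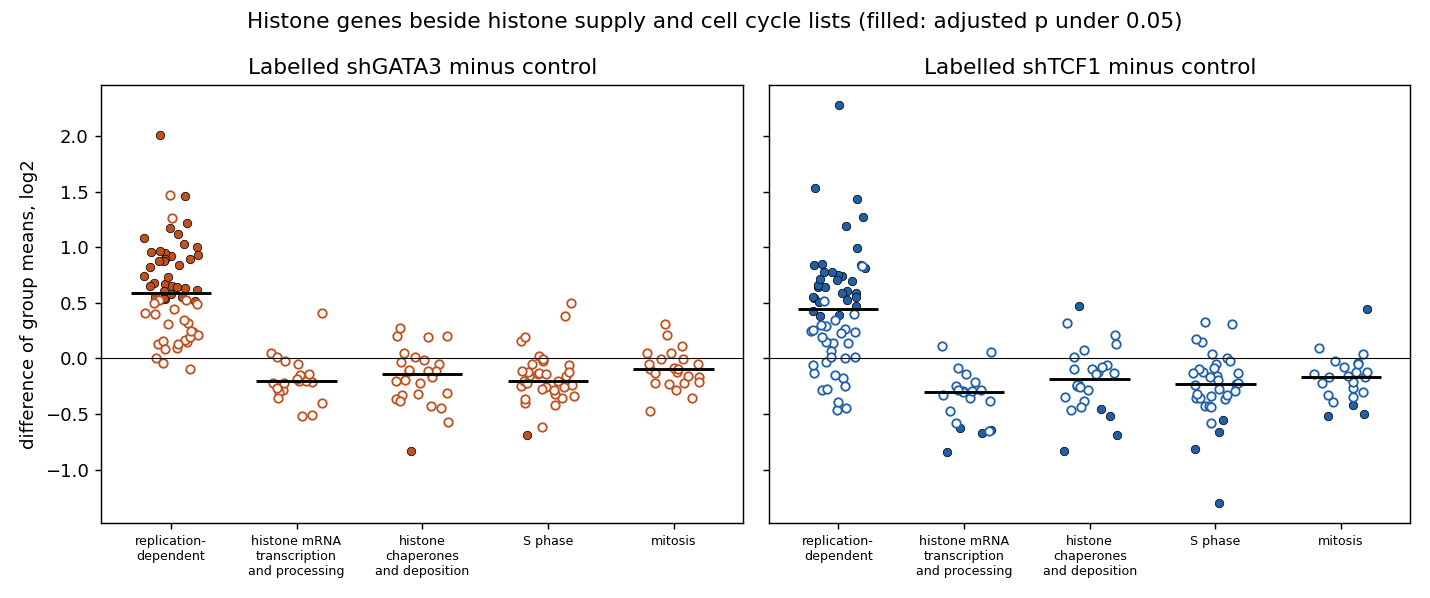
Difference of group means (log2 units, vertical axis) of each tested replication-dependent histone gene and of the genes of 4 lists, shGATA3 minus control on the left and shTCF1 minus control on the right. Filled points have an adjusted p under 0.05 and black bars are medians. The histone median lies at 0.59 and 0.45, and the 4 list medians lie between -0.30 and -0.10.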

How the data were processed

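RNA of EGFP+ RPMI-8402 cells was profiled on 6 custom Agilent 1-colour arrays, 2 per group, all on 1 slide and from 1 scan. The authors deposited scanner text files, in which the processed signal is a background-subtracted intensity per spot (software version 10.7.1.1 in the headers, while the submitters' processing notes name Agilent Feature Extraction 9.1; probe design on hg19), and a value table on the log2 scale. The deposited log2 table, whose direction and centring are not stated, was used only as an alternative, since its columns labelled control replicate 1 and shGATA3 replicate 1 correlated best with the arrays of control replicate 2 (r = 0.999) and shGATA3 replicate 2 (r = 0.999), and its column of control replicate 2 correlated at 0.733 with its own array. Its column medians lay between 4.94 and 5.11.

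Spots of a probe were averaged, and 71 probes with an outlier flag on an array were left out, 0 of them histone probes. Of 57176 probes 25729 matched 1 symbol through their RefSeq accession, 31447 none and 0 several. After the study's methods, intensities were normalized by variance stabilisation (VSN, rewritten here because the package was not installed: trimming quantile 0.9, 7 iterations, 5 strata, all non-control probes), and the values are on its log2-like scale. A probe was tested when, in 1 group or more, it lay well above background on each array (31134 probes; 27332 on all 6 arrays). Groups were compared in 1 fit of all 6 arrays with limma 3.58.1 (lmFit and eBayes, R 4.3.3), two-sided, with Benjamini-Hochberg adjustment over all tested probes and a threshold of 0.05. Residual degrees of freedom were 3, and prior degrees 2.40. The steps were tested on simulated data. Arrays of a group correlated at 0.994 to 0.995. The number of arrays limits the precision.

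The histone set, its classes and the lists of other genes were chosen with earlier results of these data known, so set medians have no test. Named genes were the variants (1 of them is not reported here), in each replication-dependent class the 3 genes with the largest difference in each contrast and the 1 with the smallest, the targeted genes, SLBP, NPAT and the called list genes with the largest changes, at most 2 from each cell cycle list. ZNF473, H3C3, H2AC7, H2BC8, H2AC13, H2BC13 and the genes of the probe pairs were named after their values were seen. Scaling, filters, an intensity trend, a replicate block, single-contrast fits and fits without 1 array were tried as alternatives, and VSN on the tested probes was added after seeing the data. A block for slide or scan was not run: 1 scan held all arrays, and the slide row coincided with control against shRNA. A setting that drops probes with several symbols was not needed, since no probe had several. Promoters came from RefSeq, GRCh38.p14. Clusters were taken from the RefSeq chromosome, and on chromosome 1 also from the start position, as the scanner files give no gene positions.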

Additional observations from a re-analysis of the deposited data

How the results depend on the processing

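Among the 72 tested histone genes 36 were called in shGATA3, 34 in shTCF1 and 1 between the shRNA groups, and of these 34, 31 and 0 were called under all 4 other scalings. The deposited value table, with columns that did not match their arrays, gave 0 calls in each contrast. Without the filter on dim probes there were 4, 5 and 0. That fit held 57105 probes, of which 77 were called higher and 156 lower in shGATA3. The cause of the loss was not tested. The replicate block left 16 calls in shGATA3 and 0 between the shRNA groups. Deviations of same-numbered arrays correlated at -0.04, -0.01 and 0.06, which cannot show whether these arrays were prepared together. Fits on each contrast's own 4 arrays left 21 calls in shGATA3 and 0 between the shRNA groups. Between the shRNA groups 0 genes were called with 75th percentile scaling, 11 with normexp, 4 with probes above background on all 6 arrays, 12 with an intensity trend, 5 with VSN fitted on the tested probes and 2 with all probes counted apart. Leaving out 1 array gave 4 to 16 calls in shGATA3, 6 to 32 in shTCF1 and 0 between the shRNA groups. In such fits the lone array was taken to vary like the other groups.

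The replication-dependent median exceeded the variant median by 0.47 in shGATA3, 0.30 in shTCF1 and 0.22 between them. It moved to 0.57 and 0.37 with quantile normalization, to 0.56, 0.38 and 0.16 with normexp, and to 0.12 and -0.028 in the deposited table. In shTCF1 it was 0.23 with probes above background on all 6 arrays and 0.36 with all probes counted apart. Without 1 array it ranged from 0.42 to 0.50 in shGATA3 and from 0.24 to 0.35 in shTCF1. The causes were not tested.

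Signs turned in 44 of the 1436 alternative values of 45 named genes, all for differences that had not been called. In shGATA3 the deposited table gave -0.41 for H2AJ, 4.69 for H3-3B, -0.23 for H2AC25, 1.06 for H2BC21, -0.10 for H3C6, -0.011 for H4C5 and 0.57 for POLA2. In shTCF1 it gave -0.21 for H2AJ, 0.58 for H2AZ1 and -0.24 for H3C6. With 75th percentile scaling H2BC21 (0.081) and GATA3 (0.00047) turned in shGATA3, and H2AZ1 (0.068), H2AC25 (0.049) and H4C5 (0.031) in shTCF1. With quantile normalization H2BC21 (0.089) turned in shGATA3, and H2AZ2 (-0.0072), H2AC25 (0.083) and H3C6 (-0.023) in shTCF1. With normexp H2AZ1 (-0.030), MACROH2A1 (-0.015) and H2BC21 (0.024) turned in shGATA3, and H2AZ2 (-0.043), H3-3B (-0.054) and H2AC25 (0.059) in shTCF1. With VSN on the tested probes H2BC21 (0.043) turned in shGATA3, and H2AZ1 (0.044), H2AC25 (0.0086) and H4C5 (0.0073) in shTCF1. Fits without 1 array in shGATA3 gave -0.023 to 0.071 for H2AJ, -0.0073 to 0.20 for H2AZ1, -0.17 to 0.18 for H2AC25, -0.092 to 0.011 for H2BC21, -0.026 to 0.42 for H3C4 and -0.028 to 0.20 for H4C5. In shTCF1 they gave -0.0074 to 0.086 for H2AZ2, -0.026 to 0.15 for H3-3B, -0.024 to 0.033 for H1-3, -0.10 to 0.13 for H2BC21 and -0.044 to 0.068 for H3C6. Among the remaining values of these genes 182 lost and 65 gained a call in the same direction.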
